A study of Arabidopsis thaliana with 4 samples.

Results

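Aquaporins are membrane channels that let water, and in some cases small solutes such as ammonia, boric acid or hydrogen peroxide, cross a membrane along their gradient. In plants the plasma membrane intrinsic proteins (PIPs) set the water permeability of the cell surface, and the tonoplast intrinsic proteins (TIPs) that of the vacuole membrane. PIPs fall into the groups PIP1 and PIP2; PIP2 proteins are active water channels, and PIP1 proteins often need a PIP2 partner to reach the plasma membrane. In a seedling these channels carry water across root tissues and into the expanding vacuoles of growing cells.

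The genes described here are 10 major aquaporin genes of Arabidopsis thaliana, chosen by gene identifier: PIP1-1, PIP1-2, PIP2-1, PIP2-2, PIP2-7, TIP1-1, TIP1-2, TIP2-1, TIP2-2 and TIP2-3. They are 10 of the 35 genes of the aquaporin family and of 24252 genes listed in at least 1 library, and all 10 were listed in every library. The libraries were mRNA-seq libraries of whole seedlings aged 7 days, 2 of wild type (WT) and 2 of fer-4, a line labelled FERONIA-/- that is mutant in FERONIA (FER), a receptor kinase of the cell surface that binds RALF peptides. All were of the Col-0 ecotype, untreated, and raised on vertical plates of diluted MS medium with 16 h of light and 8 h of darkness. The comparison of the genotypes asks how transcript levels differ in the mutant. Nothing in the labels says whether replicates came from separate plates or days. A p-value here therefore reflects only spread between the 2 libraries of a genotype, the gene's own drawn toward that of other tested genes. That spread may be technical.

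Levels are the authors' FPKM, fragments scaled to transcript length and library depth. A log2 fold change is fer-4 minus WT on the log2(FPKM + 1) scale, with limma's standard error, and a gene was called higher or lower at a Benjamini-Hochberg adjusted p under 0.05 over all 19183 genes tested. FER itself averaged 90.4 ± 2.02 FPKM in WT libraries against 61.4 ± 1.09 FPKM in the mutant (SD, n = 2 each), so transcript was still made from the locus (log2 fold change -0.55 ± 0.08, limma adjusted p = 0.00638, and 0.0593 without WT replicate 2). The files hold no fragment counts. From the smallest listed values, library size in units of 1e6 fragments was estimated at 19.8 to 21.9, on which reading TIP2-3, the lowest of the 10, rested on about 127 to 320 fragments per library, and TIP1-2, the highest, on at least 17400. Marker genes of tissues were looked up. All 12 root markers and all 10 shoot markers were listed, which needs only a value above 0. Of 4 seed markers 2 were listed in no library, and the rest summed to at most 0.161 FPKM.

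Aquaporin subunits share a fold with a pair of short loops that meet in the pore, each carrying the signature asparagine-proline-alanine (NPA). All 10 genes held exactly 2 NPA codon triplets in frame, and over the family 27 of 35 genes held at least 2, 7 held 1 and NIP5-1 held 0. The coding sequence around the first triplet was read 5′ to 3′ from the TAIR10.1 genome with the RefSeq annotation. It is shown for members of the PIP2 and TIP groups and for PIP2-3, the near copy of PIP2-2. Likeness in sequence can thus be set beside the values below. The NPA codons are in capitals.
PIP2-1: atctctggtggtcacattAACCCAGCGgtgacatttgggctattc
PIP2-2: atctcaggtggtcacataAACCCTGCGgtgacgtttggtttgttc
PIP2-3: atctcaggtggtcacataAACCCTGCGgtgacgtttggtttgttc
PIP2-7: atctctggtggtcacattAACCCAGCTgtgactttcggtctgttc
TIP1-1: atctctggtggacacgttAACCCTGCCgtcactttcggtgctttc
TIP1-2: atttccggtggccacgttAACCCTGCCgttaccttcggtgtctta
TIP2-1: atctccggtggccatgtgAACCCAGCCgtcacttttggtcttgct
TIP2-3: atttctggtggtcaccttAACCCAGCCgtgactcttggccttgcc
PIP2-2 and PIP2-3 were identical over these 45 bases, whereas TIP1-1 and TIP1-2 differed at 8 of them. Over whole coding sequences, identity was 66.1% to 87.6% among the 5 PIP genes, 64.7% to 81.5% among the 5 TIP genes and 48.1% to 52.3% between a PIP and a TIP. The closest relative of each gene was another family gene at 71.4% to 87.6% identity, except for PIP2-2, which was 94.8% identical to PIP2-3 with a run of 242 identical bases in the transcript. How reads divide between PIP2-2 and PIP2-3 is therefore uncertain. For the other nine genes the longest run shared with the closest relative was 23 to 41 bases.

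In fer-4 the 10 genes did not move as 1 group. TIP1-2 and TIP2-1 are among the most abundant aquaporin transcripts of the seedling. TIP1-2 fell by 47.4%, and TIP2-1 fell by 46.5%. PIP2-2 rose 2.64-fold and TIP2-3, the least abundant, rose 2.34-fold. PIP1-1 rose 1.26-fold, just past the threshold. PIP1-2, PIP2-1, PIP2-7, TIP1-1 and TIP2-2 were not called. Thus 3 of 10 were called higher and 2 of 10 lower, where over all tested genes 14.3% were called higher, 9% lower and 23.3% either way; among the 1258 genes averaging 100 FPKM or more 24.6% were called. Of all called genes 61.4% were higher, a share that quantile normalization brought to 49.2%, while the counts for the 10 genes were again 3 and 2. Without WT replicate 2 those counts were 2 and 0, and without fer-4 replicate 2 they were 2 and 1; over all genes, 1688 calls were made without WT replicate 2 and 1905 without WT replicate 1, against 4469. The median log2 fold change of the 10 genes was 0.15, and that of all genes tested was 0.005. In 9 of the 10 genes the WT and fer-4 libraries did not overlap, 6 with fer-4 above and 3 with fer-4 below, where 66.1% of all tested genes, and 71.9% of those averaging 100 FPKM or more, did not overlap. An exact permutation test of 2 libraries against 2 cannot go below p = 0.333 two-sided, so none is given for single values.

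**Figure D1:**
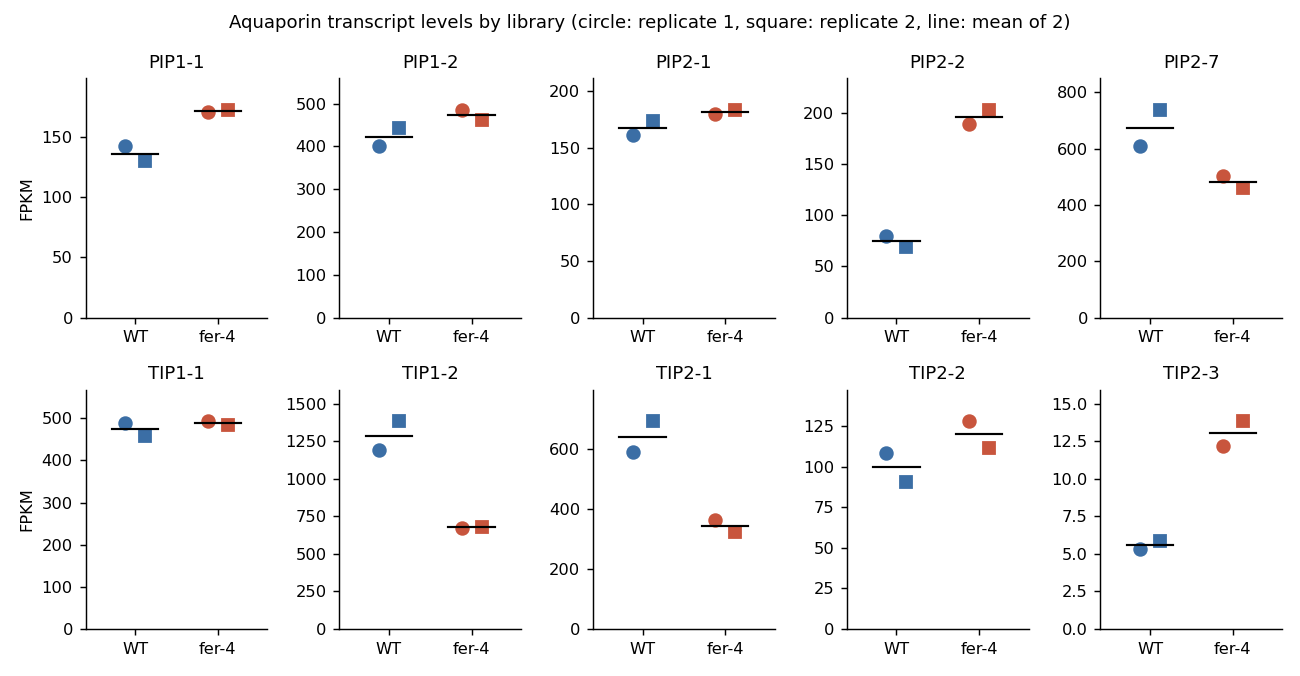
Transcript level in FPKM (vertical axis, from 0, with its own scale for each gene) of the 10 aquaporin genes in the 2 WT and 2 fer-4 libraries. Points are single libraries and lines are means of 2; the fer-4 points of PIP2-2 and TIP2-3 lie far above those of WT, and those of TIP1-2 and TIP2-1 far below.

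Among the plasma membrane channels, PIP2-2 (AT2G37170, TAIR10.1 chromosome 2, 15613368 to 15615022, minus strand, 4 exons) carried the largest change. Its gene product contributes to water uptake by root cells. The WT libraries held 79.9 and 68.8 FPKM of it, the fer-4 libraries 189 and 203 FPKM. Both fer-4 libraries lay far above both WT libraries, without overlap. The log2 fold change was 1.39 ± 0.11 (limma, adjusted p = 0.000708). The call held under all 14 alternatives, of which the lowest value, 1.21, was that of PIP2-2 summed with PIP2-3. PIP2-2 alone ranged from 1.28 to 1.498. PIP2-3, also named RD28 for its response to desiccation, lies 2612 bases away on the other strand, so that the pair is transcribed outward. It was called higher as well, with 29.4 and 29.8 FPKM in the WT libraries against 42.2 and 47.0 FPKM in the mutant (log2 fold change 0.57 ± 0.09, adjusted p = 0.00816). Without either WT library the call of PIP2-3 was lost (adjusted p = 0.0637 and 0.0662). Summed as a single feature, because their reads are hard to separate, the pair still rose by 1.21 on the log2 scale.

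PIP1-1 (AT3G61430, chromosome 3, 22733243 to 22735394, plus strand, 4 exons) stood at 142 and 129.9 FPKM in the WT libraries against 171 and 172 FPKM in the mutant. The groups were apart, but the change was small, 0.33 ± 0.09 on the log2 scale, with an adjusted p of 0.0499 in limma. The call held in 5 of 14 alternatives. These include the summed pair of PIP2-2 and PIP2-3, which leaves the change of PIP1-1 as it was. They also include a crossed replicate block that was added after the data were seen. When any 1 library was left out the call was lost, with log2 fold changes from 0.27 to 0.398. Its relative PIP1-2 (AT2G45960, chromosome 2, 18910081 to 18911982), which contributes to the water conductivity of roots and leaves, stood at 401 and 442 FPKM against 486 and 462.5 FPKM in the mutant. PIP2-1 (AT3G53420, chromosome 3, 19803473 to 19805730), a water channel regulated by phosphorylation and active in roots and guard cells, stood at 161 and 174 FPKM against 180.1 and 184 FPKM in the mutant. In both genes each fer-4 library lay above each WT library by little, and neither was called (log2 fold changes 0.17 ± 0.12 and 0.12 ± 0.09, limma adjusted p = 0.332 and 0.401).

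PIP2-7 (AT4G35100, chromosome 4, 16708361 to 16710407, plus strand), the most abundant PIP transcript in WT and level with PIP1-2 in fer-4, where the libraries of both genes overlapped, lay lower in fer-4. Its WT libraries held 609.9 and 739 FPKM, its fer-4 libraries 504 and 459.5 FPKM. The groups did not overlap, yet the WT libraries were themselves well apart, and the difference of -0.48 ± 0.14 on the log2 scale did not pass (limma, adjusted p = 0.061). Its closest relative PIP2-8 was called lower, from 54.3 ± 5.40 to 26.5 ± 2.21 FPKM (SD, n = 2; log2 fold change -1.01 ± 0.11, adjusted p = 0.00209).

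Among the vacuolar channels, TIP1-2 (AT3G26520, chromosome 3, 9722443 to 9723904, minus strand, 2 exons), a water channel of the gamma-TIP type, was the most abundant of the 10 in both genotypes. Its WT libraries held 1189 and 1385 FPKM, and its fer-4 libraries 674 and 679.8 FPKM. The mutant libraries lay close together, well below both WT libraries. In rank among all genes of a library it went from 25 and 23 in WT to 73 and 64 in fer-4. The log2 fold change was -0.92 ± 0.14 (limma, adjusted p = 0.00785). Over the 14 alternatives it ran from -1.03 to -0.67, the last under quantile normalization. Without WT replicate 2 it was -0.81 (adjusted p = 0.0521) and without fer-4 replicate 2 it was -0.93 (adjusted p = 0.0502), so those calls were lost by a narrow margin. TIP1-1 (AT2G36830, chromosome 2, 15445294 to 15446621, plus strand), the other gamma-TIP of the set and 81.1% identical in coding sequence, stood at 489 and 458 FPKM in the WT libraries against 494 and 484 FPKM in the mutant. Its groups overlapped, and its log2 fold change was 0.05 ± 0.11 (limma, adjusted p = 0.801; -0.00044 without WT replicate 2). Within a library TIP1-2 was 2.43 and 3.02 times the level of TIP1-1 in WT, and 1.37 and 1.40 times in fer-4.

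TIP2-1 (AT3G16240, chromosome 3, 5505360 to 5507050, plus strand, 3 exons), the delta-TIP that conducts ammonia as well as water, stood at 591 and 695 FPKM in the WT libraries against 365 and 322 FPKM in the mutant. All fer-4 values lay below all WT values (log2 fold change -0.90 ± 0.14, limma, adjusted p = 0.00716). Without WT replicate 2 the value was -0.78 and the call was lost (adjusted p = 0.0535). In the files TIP2-1 shares a locus with AT3G16250 (PNSB3), a chloroplast NDH complex gene on the minus strand that overlaps it in the annotation, and an antisense RNA, AT3G03265, lies inside it. No source used here gives the strand setting of the counting, so how reads from the overlapping stretches were divided is unknown. PNSB3 stood at 100.4 and 107 FPKM in the WT libraries against 83.5 and 61.8 FPKM in the mutant, and AT3G03265 was listed in no library.

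The closest relatives of TIP2-1 did not fall with it. TIP2-3 (AT5G47450, chromosome 5, 19248249 to 19249622, minus strand, 2 exons), an ammonia-conducting channel found mainly in roots, stood at 5.29 and 5.83 FPKM in the WT libraries against 12.2 and 13.8 FPKM in the mutant. The fer-4 libraries lay far above those of WT, without overlap. The log2 fold change was 1.09 ± 0.11 (limma, adjusted p = 0.0018), past the threshold under all 14 alternatives, from 1.01 to 1.21. TIP2-2 (AT4G17340, chromosome 4, 9698940 to 9700472, plus strand) stood at 109 and 90.6 FPKM in the WT libraries against 128 and 112 FPKM in the mutant, so the groups came close without overlap, and it was not called (0.27 ± 0.13, adjusted p = 0.179). TIP2-1 exceeded TIP2-2 by 5.43 and 7.67 times in the WT libraries and by 2.85 and 2.89 times in the fer-4 libraries.

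The order of the levels changed with these shifts. In WT the order from highest was TIP1-2, PIP2-7, TIP2-1, TIP1-1, PIP1-2, PIP2-1, PIP1-1, TIP2-2, PIP2-2 and TIP2-3, and of these neighbours PIP2-7 and TIP2-1 overlapped in their libraries. In fer-4 it was TIP1-2, TIP1-1, PIP2-7, PIP1-2, TIP2-1, PIP2-2, PIP2-1, PIP1-1, TIP2-2 and TIP2-3, with overlap between TIP1-1 and PIP2-7 and between PIP2-7 and PIP1-2. PIP2-2 thus went from place 9 to place 6. It made up 5.73% and 4.43% of the summed PIP level of the set in WT and 12.4% and 13.7% in fer-4, while PIP2-7 went from 43.8% and 47.6% to 33.0% and 31.0%.

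The summed level of the 5 PIP genes was 1394 and 1554 FPKM in the WT libraries against 1531 and 1481 FPKM in the mutant, so the groups overlapped. The summed level of the 5 TIP genes was 2383 and 2635 FPKM in the WT libraries against 1673 and 1612 FPKM in the mutant. The ratio of the means was 0.655, with every fer-4 library below every WT library. TIP1-1 was not called, and its share of the TIP sum went from 20.5% and 17.4% in WT to 29.5% and 30.04% in fer-4. All 10 genes together summed to 3983 ± 291 FPKM in the WT libraries against 3148 ± 78.3 FPKM in the mutant (SD, n = 2), a log2 ratio of -0.34 that quantile normalization brought to -0.21.

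**Figure D2:**
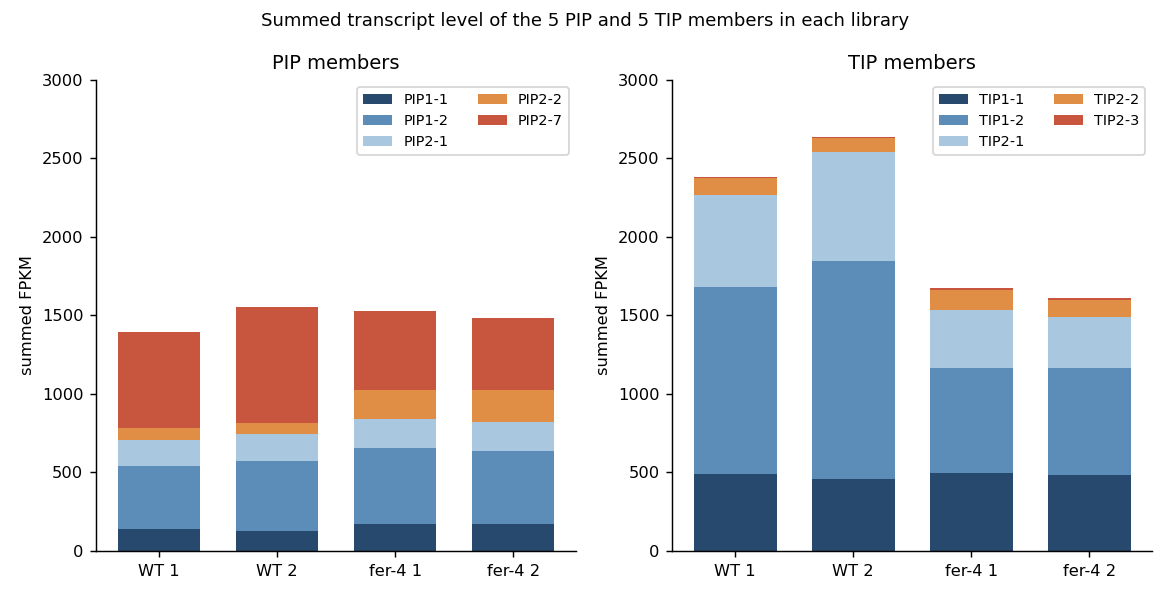
Summed FPKM (vertical axis, from 0) of the 5 PIP genes (left) and the 5 TIP genes (right) in each library, stacked by gene. The PIP bars stay between 1394 and 1554 FPKM in all 4 libraries with a wider band of PIP2-2 in fer-4, and the TIP bars drop from above 2300 FPKM in WT to below 1700 FPKM in fer-4 as the bands of TIP1-2 and TIP2-1 shrink.

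The rest of the family was read from the same comparison. Of the other 25 aquaporin genes, 18 passed the filter of a mean of 1 FPKM; 2 of them were called higher, 5 lower and 11 neither, where 14.3% of all tested genes were called higher and 9% lower. Their median log2 fold change was -0.13. Lower were PIP1-4 (147 ± 10.2 to 76.5 ± 9.59 FPKM), PIP2-6 (129 ± 17.98 to 79.3 ± 3.51), PIP2-8 (given above), TIP4-1, a tonoplast channel of roots (68.9 ± 14.3 to 32.4 ± 0.314), and NIP6-1, a boric acid channel of shoots (5.89 ± 0.351 to 1.95 ± 0.0855; SD, n = 2 throughout). The call of PIP2-6 was lost without WT replicate 2 (adjusted p = 0.0628). Higher were PIP2-3 and SIP1-2, a small basic intrinsic protein of the endoplasmic reticulum, which went from 1.93 ± 0.312 to 5.93 ± 0.919 FPKM. NIP6-1 and SIP1-2 each share a locus in the files with a gene on the other strand, and so do NIP2-1 and SIP2-1, so their values are uncertain.

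Genes of the family that were not called covered most of the remaining levels. PIP1-3 averaged 302 ± 39.0 FPKM in the WT libraries against 274 ± 22.2 FPKM in the mutant, and PIP1-5 measured 92.1 ± 5.09 and 79.3 ± 1.78 FPKM. PIP2-4 (10.6 ± 1.84 and 14.0 ± 2.26 FPKM) and PIP2-5 (10.5 ± 0.260 and 8.06 ± 1.36 FPKM) were low. NIP5-1, the boric acid channel of root uptake, measured 23.8 ± 0.822 and 21.7 ± 0.674 FPKM, NIP1-1 59.5 ± 2.82 and 50.1 ± 1.95, and NIP1-2 7.00 ± 0.0396 and 9.39 ± 1.28 FPKM. SIP1-1 averaged 68.9 ± 5.41 against 72.7 ± 2.61 FPKM, and SIP2-1 31.5 ± 2.77 against 34.3 ± 4.65 FPKM. NIP3-1 (2.23 ± 0.229 and 2.09 ± 1.29 FPKM) and NIP2-1 (0.780 ± 0.0513 and 1.48 ± 1.68 FPKM) were lowest, with fer-4 libraries far apart. The 7 genes below the filter were TIP1-3, TIP3-1, TIP3-2, TIP5-1, NIP4-1, NIP4-2 and NIP7-1, of which TIP3-1 is a seed storage vacuole channel, and TIP3-1, TIP5-1 and NIP4-1 were listed in no library.

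**Figure D3:**
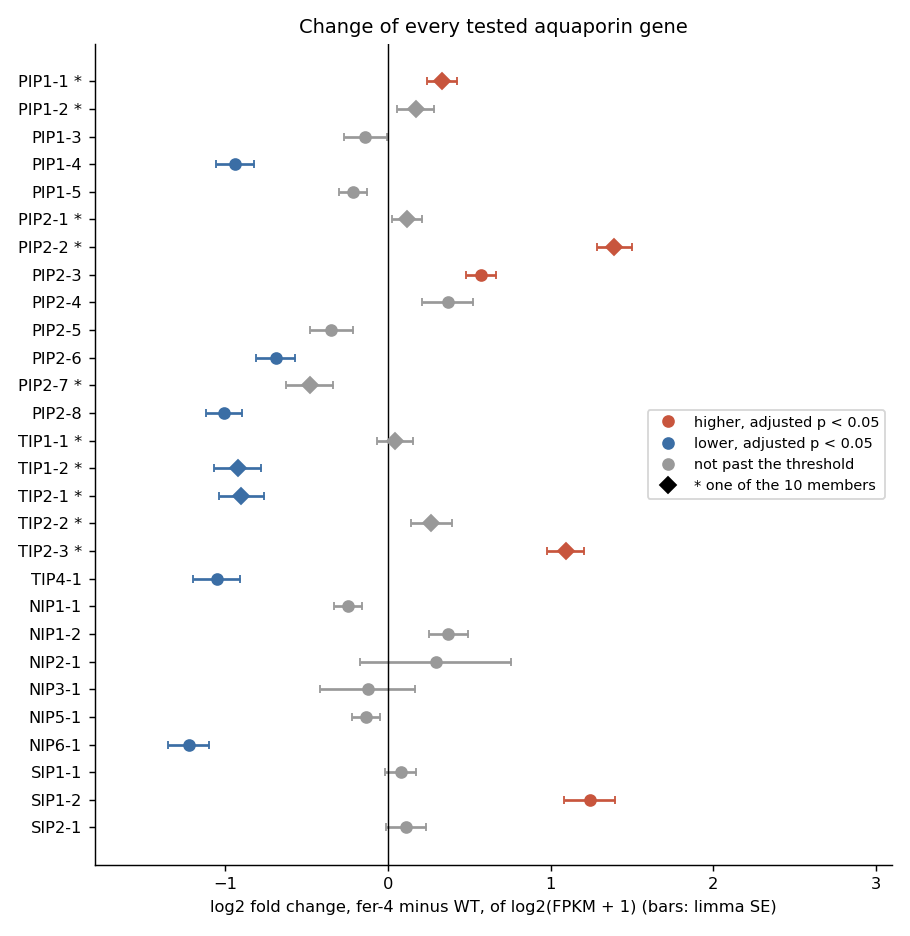
Log2 fold change, fer-4 minus WT on the log2(FPKM + 1) scale (horizontal axis), of the 28 tested aquaporin genes, with limma standard errors as bars; diamonds and asterisks mark the 10 genes of the set. Red genes were called higher, blue genes lower and grey genes neither. Within the PIP1, PIP2 and TIP groups calls of both directions occur.

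Genes known to act on aquaporins were read from a further list. The list held the syntaxins SYP121 and SYP61, which deliver PIPs to the plasma membrane, the kinases SRK2E (OST1), BAK1 and SIRK1, the ubiquitin ligases RMA1, RMA2 and RMA3, and TSPO, which takes PIP2-7 to degradation. Of 8 tested, 0 were called by limma in either direction, 1 had an unadjusted p under 0.05, and over all 19183 genes 23.3% were called and 7210 had such a p. Among the 8, log2 fold changes ran from -0.37 to 0.28. TSPO was below the filter.

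Tissue markers were read beside the sums, because in a whole seedling fewer cells of a type and less RNA per cell cannot be told apart. The 12 root markers, among them the endodermal genes CASP1 and CASP2 and the root hair gene PRP3, summed to 175 and 147 FPKM in the WT libraries against 157 and 152 FPKM in the mutant, with 0 called higher and 1, NRT2.1, called lower. The fer-4 root sums lay within the WT range, while NRT2.1 went from 2.50 ± 0.860 to 0.762 ± 0.0520 FPKM (SD, n = 2). Among aquaporins described above for roots, PIP2-2 and TIP2-3 were called higher and TIP4-1 lower. PIP1-2, PIP2-1 and NIP5-1, also described for roots, were not called. Over all tested genes 14.3% were called higher and 9% lower. The 10 shoot markers, led by RBCS1A, CA1 and RCA, summed to 21842 and 24879 FPKM in the WT libraries against 20924 and 16476 FPKM in the mutant, with 0 called higher and 1, PSAD-2, called lower. By gene, the ratio of the fer-4 mean to the WT mean of the shoot markers ran from 0.677 (PSBO1) to 1.81 (LHCB1.1). The shoot sum was 89.6% and 70.5% of the WT mean in fer-4 replicates 1 and 2. In the same libraries the TIP sum was 66.7% and 64.3%. The 4 guard cell markers summed to 18.4 and 17.6 FPKM in the WT libraries against 17.7 and 16.5 FPKM in the mutant, with 0 called. The part of tissue proportions in the PIP and TIP levels was not tested.

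**Figure D4:**
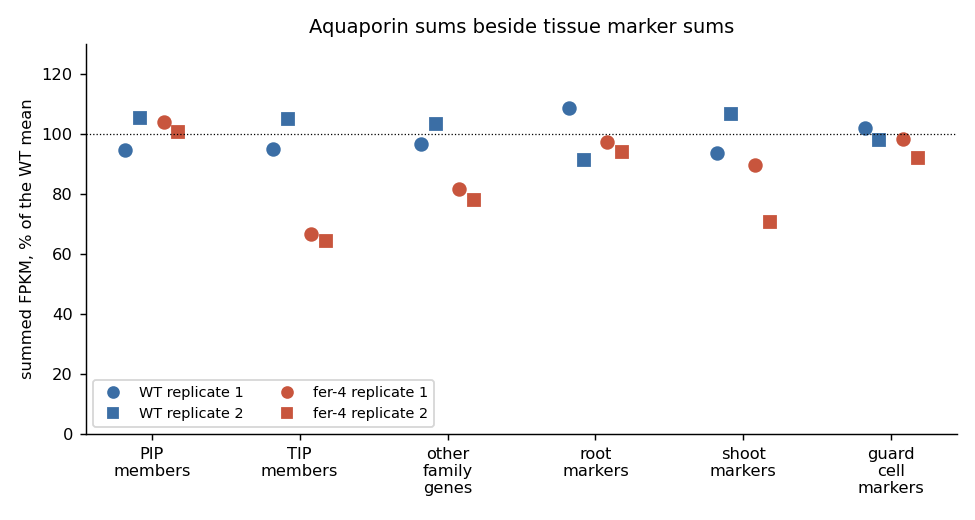
Summed FPKM in each library as a percentage of the WT mean (vertical axis, from 0; the dotted line is 100%) for the PIP and TIP genes of the set, the other family genes and 3 marker lists. The TIP sums of fer-4 are 66.7% and 64.3%, the shoot marker sums 89.6% and 70.5%, and the root marker sums 97.5% and 94.0%.

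The 250 bases before the RefSeq gene start were read for the genes called higher or lower, in the direction of transcription, with matches to the motifs below in capitals.
PIP2-2 (chr2:15615023-15615272, minus strand): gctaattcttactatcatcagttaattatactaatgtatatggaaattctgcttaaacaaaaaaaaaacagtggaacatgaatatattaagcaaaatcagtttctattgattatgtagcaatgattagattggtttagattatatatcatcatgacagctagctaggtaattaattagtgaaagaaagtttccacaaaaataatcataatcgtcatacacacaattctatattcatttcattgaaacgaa
TIP2-3 (chr5:19249623-19249872, minus strand): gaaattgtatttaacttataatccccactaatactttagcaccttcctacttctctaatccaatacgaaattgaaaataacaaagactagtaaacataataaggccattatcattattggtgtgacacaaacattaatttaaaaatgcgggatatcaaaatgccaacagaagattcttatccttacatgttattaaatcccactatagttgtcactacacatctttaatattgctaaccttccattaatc
PIP1-1 (chr3:22732993-22733242, plus strand): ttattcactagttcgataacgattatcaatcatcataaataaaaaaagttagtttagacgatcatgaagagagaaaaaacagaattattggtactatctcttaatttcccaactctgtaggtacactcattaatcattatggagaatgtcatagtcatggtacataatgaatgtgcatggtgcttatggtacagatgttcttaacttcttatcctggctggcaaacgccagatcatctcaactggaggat
TIP1-2 (chr3:9723905-9724154, minus strand): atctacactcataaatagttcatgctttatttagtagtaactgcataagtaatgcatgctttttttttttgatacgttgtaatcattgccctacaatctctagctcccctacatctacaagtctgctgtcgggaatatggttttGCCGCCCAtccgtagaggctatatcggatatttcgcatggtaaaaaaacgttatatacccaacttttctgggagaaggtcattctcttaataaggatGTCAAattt
TIP2-1 (chr3:5505110-5505359, plus strand): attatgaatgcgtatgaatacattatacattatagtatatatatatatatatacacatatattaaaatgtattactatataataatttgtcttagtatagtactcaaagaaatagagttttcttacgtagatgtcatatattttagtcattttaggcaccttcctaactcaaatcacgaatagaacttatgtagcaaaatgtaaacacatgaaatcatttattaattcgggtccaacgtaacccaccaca
The motifs searched on both strands were the TATA box TATAAA, the G-box CACGTG, its core in abscisic acid response elements ACGTG, the W-box core TTGAC, the GCC box GCCGCC and the site II core TGGGC. They occurred in 47.3%, 6.49%, 22.9%, 44.9%, 1.87% and 22.7% of the same windows of 27443 protein-coding genes. Of the 5 genes shown, TIP1-2 held a GCC box overlapping a site II core and, near its start, a W-box core, and the other four held no match to these letters. Of the 10 genes, 3 held TATAAA (PIP1-2, PIP2-7 and TIP2-2), 3 the W-box core (PIP2-1, PIP2-7 and TIP1-2), 2 the site II core (PIP2-7 and TIP1-2), and TIP1-1 alone of the set held ACGTG.

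Likeness to the median pattern of the set was measured as a root mean square difference over the 4 libraries. It compared a gene's log2 deviations from its own mean with the median deviation of the 10 genes. That median was nearly flat (-0.05 and -0.04 in WT, 0.08 and 0.04 in fer-4). The 10 genes did not move together, so closeness to the median is not likeness to single members. Among 1246 other genes averaging 100 FPKM or more, the 5 closest were GLYR1, AT3G30390, PROC1, AT2G43090 and AHA1, a plasma membrane proton pump, at differences of 0.02 to 0.03.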

How the data were processed

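FPKM values per gene were deposited by the authors, 1 file per library, as the file headers name them. Tools listed, without roles, in the submitters' processing notes are HISAT2 2.0.5, StringTie 1.3.3 and CASAVA, and the build listed is TAIR10. No source used here gives the annotation release, the strand setting or the handling of multi-mapping reads. Files list genes above 0, so a missing gene was set to 0. Positions and sequences come from RefSeq TAIR10.1: 24039 of 24252 listed genes matched by locus tag, and for 24038 of them the locus in the files overlapped the RefSeq gene.

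Values were compared as log2(FPKM + 1) with limma 3.58.1 in R 4.3.3 (lmFit, eBayes with a trend, no covariates) over the 19183 genes averaging 1 FPKM or more, and p-values were adjusted by Benjamini-Hochberg. The procedure was tested on simulated data, and the outcome is not given here. Coding sequences were aligned with Biopython 1.88. Depth was estimated from the commonest low value of FPKM times transcript length. The members and lists were chosen with earlier results of these data known. Genes named are FER, the 10 genes, all other aquaporin genes, the listed regulators, some markers, and the 5 genes closest in pattern. The naming rule asked only for regulators that were called and for the markers of largest mean. It also set the upstream sequences, while the coding sequences stand in for protein sequences, which the reference lacked. The replicate numbers share no stated litter, plate or day. Alternatives were other pseudocounts, filters, scalings, a fit without trend, a replicate block, the pair PIP2-2 and PIP2-3 summed, and leaving out each library. A block with crossed replicate numbers, added after the data were seen, is counted among the 14.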

Additional observations from a re-analysis of the deposited data

How the results depend on the processing

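Over 14 alternatives, PIP2-2, TIP2-3, PIP1-4, PIP2-8 and TIP4-1 kept direction and call in each. For PIP2-2 these include the setting that summed it with PIP2-3. NIP6-1 and SIP1-2 kept direction and call in the 13 that tested them. Leaving out each library in turn gave 1688 to 4417 called genes of all tested against 4469, 2 to 4 of the 10 aquaporin genes against 5, and the lower end in both came without WT replicate 2; the lone library left is assumed to vary like the other genotype. Over these omissions 4 uncalled genes changed sign, TIP1-1 (-0.00044 to 0.093), NIP2-1 (-0.46 to 1.04), NIP3-1 (-0.56 to 0.31) and SIP2-1 (-0.021 to 0.25). Quantile normalization moved the log2 ratio of the summed level of the 10 genes from -0.34 to -0.21 and of the 5 TIP genes from -0.61 to -0.45; the cause was not tested. Deviations of same-numbered libraries were weakly and negatively correlated over genes (-0.222), which cannot show whether the numbers mark a batch. The labels state no pairing, so the numbers are not taken as pairs. The replicate block gave 3772 called genes and 4 of the 10, losing PIP1-1. A block with crossed numbers, added after the data were seen, gave 5681 called genes and 6 of the 10. Of the single-gene values under alternatives, 377 kept direction and call, 16 lost the call, 4 gained it and 4 changed sign. Depth limits the low genes NIP2-1 and NIP3-1 most, at an estimated 7.53 to 61.4 and 30.5 to 70.0 fragments per library.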
